A study of Mus musculus with 8 samples.

Results

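The transcripts of the male arcuate nucleus were compared between mice in which the miR-17-92 cluster was deleted in Pomc-expressing cells and their wild type littermates. A transcript was kept when its mean FPKM (fragments per kilobase of transcript scaled to the mapped reads) over the 4 male libraries was at least 1. This kept 17823 of the 24361 transcripts listed for the comparison, where the whole series lists 26944. They belong to 11880 genes, of which 8220 had 1 kept transcript, 2329 had 2 and 1331 had 3 or more. Anks1b had the most, with 12.

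RNA sequencing of the arcuate nucleus, a hypothalamic centre of appetite control, was carried out in 8 libraries from C57BL/6 mice aged 4 months, and each library pooled tissue from 2 mice. The 2 knockout libraries came from males of genotype Pomc-Cre;miR-17-92flox/flox and the 2 male wild type libraries from littermates. The 4 female libraries, from Pomc-Cre;miR-7-sponge mice (a transgene meant to bind miR-7) and female wild type littermates, served here only to show how far the same transcripts varied elsewhere. Pomc-Cre acts in cells that express or once expressed Pomc, whereas the libraries hold whole arcuate tissue, and the labels do not say whether the wild type mice carried Cre. No transcript of the cluster's host gene was analysed here, so the deletion itself was not checked at the RNA level. In such tissue, fewer cells of a type and less RNA per cell cannot be told apart. Nothing in the labels ties the pools of a group to separate litters, and each p-value therefore reflects only how these libraries scatter.

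The miR-17-92 cluster is transcribed as a long RNA that is cut into several mature microRNAs. Each guides silencing proteins to mRNAs, mostly through pairing of its seed, the bases 2 to 8, with the 3′ untranslated region (UTR), and paired mRNAs are translated less or degraded. A gene can make several transcripts, or isoforms, by different start sites, splicing and ends, and isoforms with different 3′ UTRs can differ in the seed matches they carry. The mature sequences that the floxed cluster encodes are shown because their seeds define the matches counted in the 3′ UTRs further on. They are from RefSeq on GRCm38.p6, all on the plus strand of chromosome 14 between positions 115043684 and 115044496, with the seed in capitals.
miR-17-5p: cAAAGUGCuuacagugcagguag
miR-20a-5p: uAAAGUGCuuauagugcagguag
miR-18a-5p: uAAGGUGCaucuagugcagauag
miR-19a-3p: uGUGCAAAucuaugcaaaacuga
miR-19b-3p: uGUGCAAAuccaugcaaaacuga
miR-92a-3p: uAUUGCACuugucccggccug
miR-17-5p and miR-20a-5p share a seed, miR-19a-3p and miR-19b-3p share another, and miR-18a-5p and miR-92a-3p have a seed each.

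Of the 17823 kept transcripts, 2 passed the test, which is 0.0112%. The test was limma on log2(FPKM + 1) with Benjamini-Hochberg adjustment over all listed transcripts, at an adjusted p under 0.05. Both were isoforms of Sepp1, 1 higher and 1 lower in the knockout. An unadjusted p under 0.05 was reached by 605 kept transcripts with higher levels in the knockout (3.39%) and 469 with lower levels (2.63%), together 6.03%. Over all listed transcripts that share was 5.64%, beside 4.52% for sponge against wild type females and 5.68% for wild type females against wild type males, 2 comparisons in which 0 transcripts passed (0.0%). The median log2 difference over all kept transcripts was 0.03. Without wild type library 2, 1713 instead of 1074 transcripts had an unadjusted p under 0.05. The 2 groups did not overlap for 36.1% of kept transcripts, with the knockout above for 3524 and below for 2917. Summed transcript FPKM ranged from 194147 to 208443 per library, and 2.91% to 4.83% of kept transcripts were listed at 0.

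Sepp1 encodes selenoprotein P, a secreted protein that carries selenium to the brain and other organs. Sepp1-201 (GRCm38 chromosome 15, positions 3270767 to 3280508, plus strand) had 128 and 115 FPKM in knockout libraries 1 and 2, whereas the wild type libraries listed it at 0. Sepp1-001 (3270921 to 3280507) was listed at 0 in both knockout libraries and had 92.2 and 103 FPKM in wild type libraries 1 and 2. The groups did not overlap for either isoform, and each had an adjusted p of 0.0389 by limma. The FPKM of the whole gene was 102 and 87.9 in the knockout and 83.9 and 89.2 in the wild type, with a log2 difference of 0.13 ± 0.20 (SE) and an adjusted p of 0.871. The deposited gene value is not the sum of its isoforms, and in both knockout libraries it lay below that of Sepp1-201 alone. By that value, the pair changed places while the gene total differed by less than its error. The 2 isoforms start 154 bases apart and end 1 base apart.

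The same isoforms also changed places between replicates of the female groups, among mice of the same genotype and sex. Sepp1-201 was listed at 0 in miR-7-sponge library 1 and had 118 FPKM in library 2. Of the female wild type libraries, numbered 2 and 4, the first listed it at 0 and the other had 115 FPKM. Sepp1-001 did the opposite, with 91.2 and 1.05 FPKM in the sponge libraries and 129.9 and 0 FPKM in the female wild type libraries. Every library held a high level of 1 of the isoforms and at most 1.05 FPKM of the other. Neither isoform passed when all 8 libraries were fitted together, at adjusted p-values of 0.726 and 0.721. Neither passed without knockout library 1 (adjusted p = 0.176), without knockout library 2 (0.189), without wild type library 1 (0.341) or without wild type library 2 (0.338).

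The remaining isoforms of Sepp1 did not pass. Sepp1-004, a short isoform that ends within the gene, had 70.1 and 40.8 FPKM in the knockout and 72.6 and 70.5 FPKM in the wild type (adjusted p = 0.803). Sepp1-006 had 4.29 and 0.629 FPKM against 25.1 and 16.0 FPKM, and these groups did not overlap (adjusted p = 0.721).

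**Figure D1:**
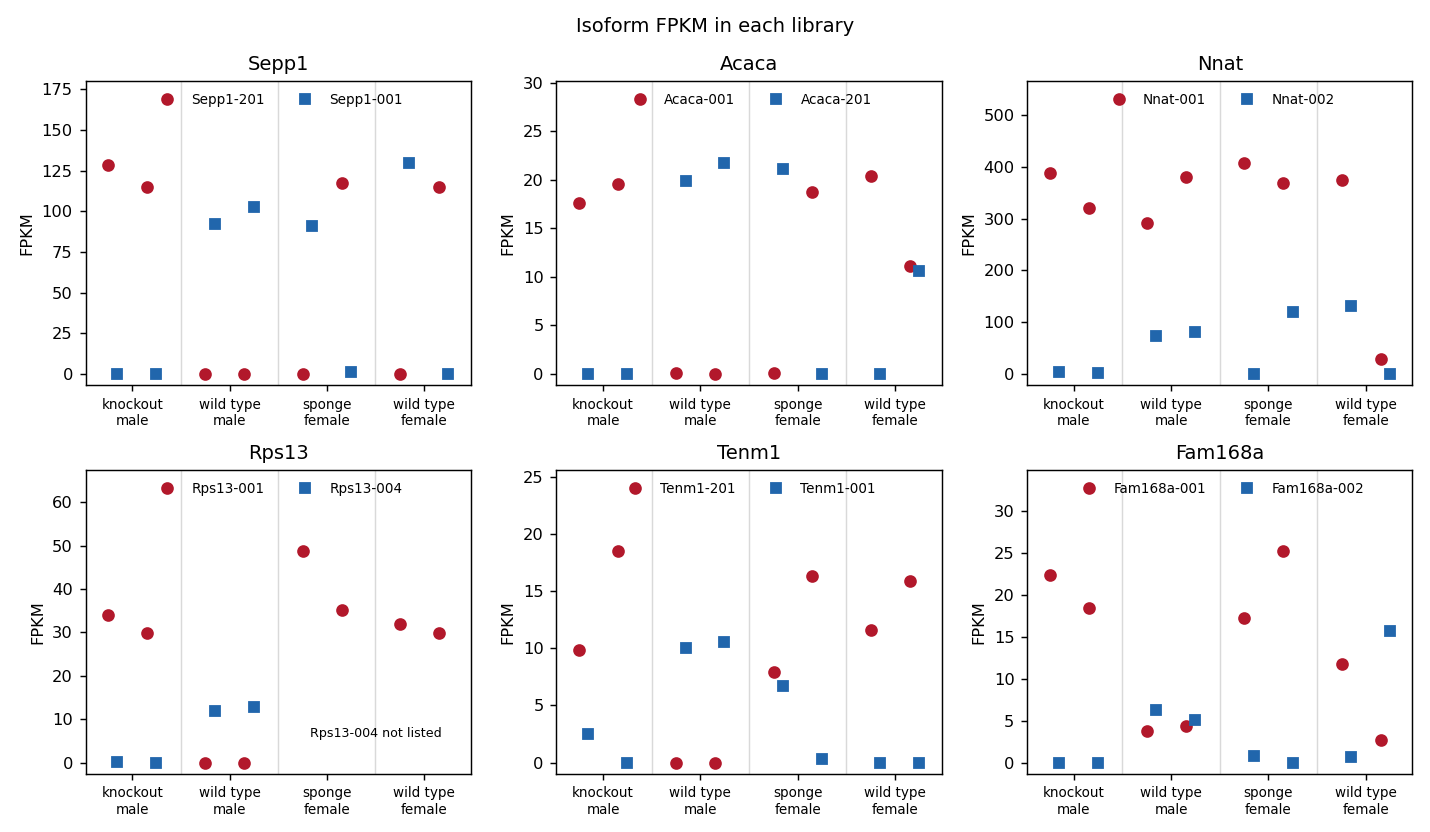
FPKM (y axis) of a pair of isoforms in each of 6 genes, by library (1 point per isoform and library, grouped by genotype and sex). In Sepp1 each library has 1 isoform high and the other at most 1.05 FPKM, and which of them is high differs between replicates in both female groups.

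Isoform use was tested as the log2 ratio of each kept transcript to the other listed transcripts of its gene, for 11319 transcripts in 5384 genes. By limma, 0 ratios passed (0.0%), and 611 (5.4%) had an unadjusted p under 0.05, in 435 genes. Without wild type library 2 the latter count was 990. The share of the gene's summed FPKM did not overlap between the groups for 34.2% of these transcripts. limma's diffSplice, which compares each isoform's difference with those of the other isoforms of its gene and draws on their common spread, called 33 transcripts in 22 genes. It treats the isoforms of a gene as independent, although their FPKM share reads and come from the same 2 libraries per group. Its p-values can therefore be too small. The genes of smallest p in the ratio test are described next, and none of them passed it. By diffSplice they did pass: the adjusted p was 3.77e-06 for Sepp1-201, 4.46e-05 for Sepp1-001, 0.000175 for both isoforms of Rps13, 7.63e-05 for Acaca-201 and 0.000175 for Acaca-001. It was 0.000175 for Dync2h1-005, 0.0121 for both isoforms of Fam168a and 0.0146 for Nnat-002.

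Rps13 encodes a protein of the small ribosomal subunit and has many processed copies in the genome, so reads may be split between them. Rps13-001 (chromosome 7, 116331505 to 116334195, minus strand) had 34.0 and 29.9 FPKM in the knockout, and the male wild type libraries listed it at 0. Rps13-004 had 0.156 and 0 FPKM in the knockout and 11.9 and 12.8 FPKM in the wild type. The groups did not overlap and the share of Rps13-001 was 99.5% and 100% against 0% and 0%, with an adjusted p of 0.0554. Rps13-001 codes for 456 bases and has a 3′ UTR of 45 bases, whereas Rps13-004 codes for 423 bases and has one of 868. The 4 female libraries, wild type included, had 29.8 to 48.7 FPKM of Rps13-001, as the knockout did. The male wild type libraries were therefore the ones that stood apart.

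Acaca encodes acetyl-CoA carboxylase alpha, the enzyme that commits acetyl-CoA to fatty acid synthesis, and is known to be transcribed from several promoters. Acaca-001 (chromosome 11, 84173122 to 84401651, plus strand) had 17.6 and 19.6 FPKM in the knockout and 0.112 and 0.00175 FPKM in the wild type. Acaca-201, which starts downstream at 84195438, was listed at 0 in the knockout and had 19.9 and 21.8 FPKM in the wild type. Both isoforms have a coding length of 7038 bases. The Acaca total was 11.5 and 12.5 FPKM against 11.9 and 12.4 FPKM, a log2 difference of -0.02 ± 0.18 (SE). The isoform ratios did not pass (adjusted p = 0.331 for Acaca-001 and 0.245 for Acaca-201). Among the females, Acaca-201 had 21.1 and 0 FPKM in the sponge libraries and 0 and 10.6 FPKM in the wild type libraries, so it varied between replicates in both groups.

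Nnat encodes neuronatin, an imprinted membrane protein of the brain. Nnat-002 (chromosome 2, 157560078 to 157562504, plus strand) had 2.97 and 1.29 FPKM in the knockout and 73.0 and 80.5 FPKM in the wild type, with a log2 difference of -4.69 ± 0.34 (SE) and an adjusted p of 0.182. Nnat-001, the leading isoform of all 4 libraries, had 388 and 321 FPKM against 291 and 379.98 FPKM. In the female libraries Nnat-002 had 0.631 and 119.7 FPKM with the sponge and 130.6 and 0.210 FPKM without it, a spread as wide between replicates as between the male groups.

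Dync2h1 encodes the heavy chain of the dynein motor of cilia. Dync2h1-005 had 0.802 and 0.888 FPKM in the knockout and 11.2 and 12.6 FPKM in the wild type, with 5.34% and 5.05% of the gene's summed FPKM against 89.7% and 94.2% (adjusted p of the ratio 0.245). Dync2h1-001 had 8.73 and 12.01 FPKM against 0.573 and 0.0293 FPKM. The 4 female libraries had 5.12 to 12.6 FPKM of Dync2h1-001, so for it the male wild type libraries stood apart. They had 2.45 to 7.78 FPKM of Dync2h1-005 in the females. Fam168a had 22.4 and 18.5 FPKM of Fam168a-001 in the knockout against 3.82 and 4.34 FPKM in the wild type (adjusted p of the ratio 0.331). Its Fam168a-002 had 0.00757 and 0 FPKM against 6.29 and 5.12 FPKM. The Fam168a total was also higher, at 20.7 and 16.9 FPKM against 10.1 and 8.98 FPKM, without passing (adjusted p = 0.608). In the female wild type libraries Fam168a-001 had 11.8 and 2.71 FPKM and Fam168a-002 had 0.713 and 15.7 FPKM. The pair thus changed places between these replicates. The sponge libraries had 17.2 and 25.2 FPKM of Fam168a-001 and 0.808 and 0 FPKM of Fam168a-002.

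The transcripts of smallest p after Sepp1 included some whose gene kept other isoforms. Peg10-201, from an imprinted gene derived from a retrotransposon (chromosome 6, 4747306 to 4760514, plus strand), had 0.684 and 0.681 FPKM in the knockout and 29.1 and 23.5 FPKM in the wild type. Its log2 difference was -4.01 ± 0.28 (SE) and its adjusted p 0.182. The 4 female libraries had 18.1 to 27.3 FPKM of Peg10-201, so here the knockout libraries stood apart from the other 6. With all 8 libraries in the fit, Peg10-201 passed (adjusted p = 0.0162). The whole Peg10 gene had 31.3 and 55.7 FPKM in the knockout and 86.0 and 69.7 FPKM in the wild type (log2 difference -0.88 ± 0.34, SE, adjusted p = 0.780).

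Atp5c1-003, an isoform of the gamma subunit of the mitochondrial ATP synthase, had 26.1 and 21.9 FPKM in the knockout and 0.975 and 0.351 FPKM in the wild type (log2 difference 3.93 ± 0.33, SE, adjusted p = 0.248). The females had 0.606 to 1.74 FPKM of it, near the male wild type.

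Leading isoforms were then counted in the 3237 genes with at least 2 kept transcripts and a summed FPKM of at least 5. The leading isoform is the transcript of highest FPKM in a library. It was the same in all 4 male libraries for 1864 genes (57.6%). It differed between the groups, and was the same within each, for 105 genes (3.24%). It differed between the 2 knockout libraries for 766 genes (23.7%) and between the 2 wild type libraries for 818 (25.3%). For the 4 pairs of a knockout and a wild type library, the count ran from 709 to 870 genes (21.9% to 26.9%). Replicates of a group thus had different leading isoforms about as often as libraries of different groups, and no test was made of that difference.

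**Figure D2:**
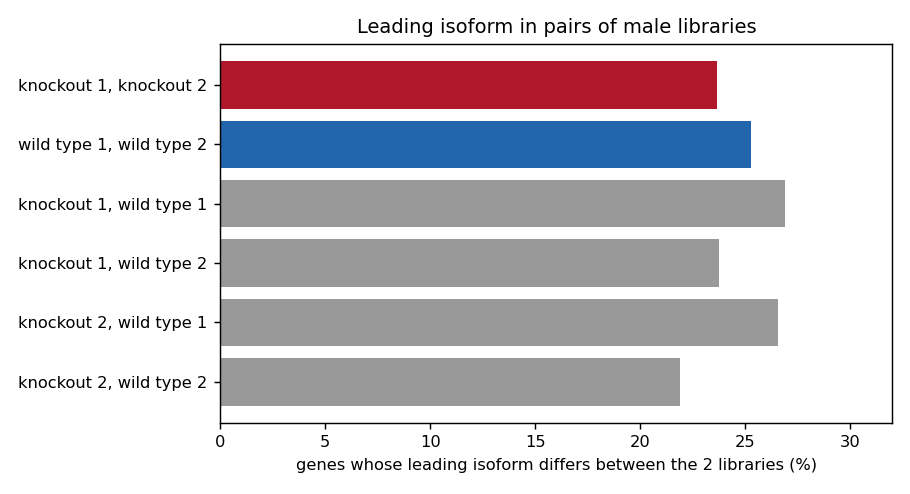
Percent of the 3237 genes (x axis, linear from 0) whose leading isoform differs between the 2 libraries of each pair named on the y axis. The pair of knockout libraries (23.7%) and the pair of wild type libraries (25.3%) lie within the range of the 4 pairs across groups (21.9% to 26.9%).

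In 93 of the 105 genes the deposited gene total differed less than 1.5-fold between the group means after 1 was added to each. That total is not the summed FPKM used for shares, and the added 1 shrinks the fold of low totals. The share over all genes was not counted, but their median absolute log2(FPKM + 1) difference between group means was 0.22. The median gain in share of the knockout leader was 30.6 percentage points. In 71 of the 105 (67.6%), the leading isoform also differed between the replicates of a female group, against 33.7% of all genes considered. Both leaders appeared among the 4 female libraries in 68 genes, only the knockout leader in 19 and only the wild type leader in 18. In these female counts, a transcript not listed for the females, such as Rps13-004, was taken as 0. The leaders of a gene overlapped strongly, sharing a median of 98.2% of the exonic bases of the shorter, where the 2 highest isoforms of all genes considered shared 96.5%. They lay within 100 bases of each other at both ends in 24.8% of pairs, against 23.8%. The coding length was equal in 24.7% of the 93 pairs with both structures in the annotation, against 20.7%. The knockout leader had the shorter annotated 3′ UTR in 53 of the 93, the longer in 29 and an equal one in 11. The 105 genes were chosen by the values themselves, so these shares are descriptions. Fewer libraries make the condition easier to meet, and the count was 320 without knockout library 1, 359 without knockout library 2, 320 without wild type library 1 and 438 without wild type library 2.

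Beside Rps13, Sepp1, Dync2h1 and Fam168a, the genes with the largest exchange of shares were Tenm1, Atp11a, Zdbf2, Alkbh7, A830010M20Rik and Ndufs1. Tenm1 encodes teneurin-1, a transmembrane protein of neuronal connections. Tenm1-201 (chromosome X, 42532391 to 43274786, minus strand) had 9.87 and 18.5 FPKM in the knockout and was listed at 0 in the wild type. Tenm1-001 (42527866 to 43167838) had 2.501 and 0 FPKM in the knockout and 9.99 and 10.6 FPKM in the wild type. The groups did not overlap, and the gene total was 7.03 and 9.68 against 7.79 and 9.54 FPKM. Both encode 8196 coding bases, but Tenm1-201 has a 3′ UTR of 74 bases and Tenm1-001 one of 4599. All 4 female libraries expressed Tenm1-201, at 7.92 to 16.3 FPKM, and the sponge libraries had 6.68 and 0.352 FPKM of Tenm1-001. Both female wild type libraries listed Tenm1-001 at 0, as knockout library 2 did.

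Of the 2 leaders, only the long Tenm1-001 carries matches to seeds of the cluster, and its sites are shown as an example of leaders that differ in their matches. Its 3′ UTR holds 1 match to the seed of miR-17 and miR-20a and 2 to that of miR-92a, and the 3′ UTR of Tenm1-201 holds none of the 4 seeds' matches. They are printed with 10 bases on either side, on the minus strand of GRCm38 chromosome X, with the match in capitals.
miR-17/20a match at 42529985 to 42529991: ttcaggaaatGCACTTTttatcactta
miR-92a match at 42532027 to 42532033: ttaaaatgtgGTGCAATagtatttaat
miR-92a match at 42530068 to 42530074: accttgaactGTGCAATtctagtttgt
The isoform with the matches was thus the lower one in the knockout, and neither isoform's ratio passed (adjusted p = 0.551 for Tenm1-201 and 0.737 for Tenm1-001). By diffSplice Tenm1-201 passed (adjusted p = 0.0152).

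In Dync2h1 it was the knockout leader Dync2h1-001 that carried matches (1 for miR-19a/b, 1 for miR-92a) and the wild type leader Dync2h1-005 that carried none. In Atp11a, which encodes a phospholipid flippase, Atp11a-001 had 11.3 and 12.8 FPKM in the knockout and 0.0549 and 0.265 FPKM in the wild type. Atp11a-003, whose coding length is 1773 instead of 3429 bases, had 0.239 and 1.00 FPKM against 4.73 and 11.5 FPKM. All 4 female libraries had 8.18 to 14.1 FPKM of Atp11a-001, so the male wild type libraries stood apart. Of Atp11a-003, the sponge libraries had 4.27 and 9.60 FPKM and the female wild type libraries 0.552 and 1.09 FPKM. By diffSplice both isoforms passed, with adjusted p-values of 0.00246 for Atp11a-001 and 0.0205 for Atp11a-003. Both leaders of Atp11a hold 1 match each for miR-18a and miR-19a/b. Over all 93 pairs with both structures, a miR-17/20a match stood only in the knockout leader for 5 genes and only in the wild type leader for 4. For miR-92a these counts were 3 and 6, for miR-19a/b 4 and 7, and for miR-18a 1 and 2.

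Zdbf2 is an imprinted gene that acts in the hypothalamic control of feeding after birth. Zdbf2-001 had 9.83 and 19.1 FPKM in the knockout and 1.67 and 2.18 FPKM in the wild type, and Zdbf2-201 had 4.85 and 0.276 FPKM against 12.8 and 12.9 FPKM. The coding length of the leaders is the same, 7482 bases, and their starts lie 17473 bases apart. Ndufs1 encodes the largest subunit of respiratory complex I. Ndufs1-006 had 35.8 and 37.9 FPKM against 13.9 and 17.0 FPKM, and Ndufs1-001 had 10.7 and 4.15 FPKM against 23.4 and 30.5 FPKM. Its leaders share the coding length too, 2184 bases, and the gene total was 16.5 and 15.0 against 13.0 and 16.4 FPKM. Alkbh7, a mitochondrial dioxygenase gene, had 0 and 0.684 FPKM of Alkbh7-002 in the knockout against 9.53 and 12.4 FPKM in the wild type. A830010M20Rik-201 had 6.86 and 10.5 FPKM against 2.06 and 2.31 FPKM. None of these ratios passed, at adjusted p-values from 0.538 to 0.904.

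Kept transcripts of genes with several listed transcripts varied more between replicates than those of genes with 1. For transcripts of genes with 1 listed transcript, the median absolute difference in log2(FPKM + 1) was 0.28 between the knockout replicates and 0.31 between the wild type replicates, and 0.26 between the group means. For transcripts of genes with several, these medians were 0.47, 0.54 and 0.41. For gene totals they were 0.24, 0.25 and 0.22. These cover all 13465 listed genes, of which 11912 had a mean FPKM of at least 1, so that set is unlike the kept transcripts. A mean of 2 libraries varies less than a library alone, which bears on these comparisons. The share with an unadjusted p under 0.05 was 3.68% for transcripts of genes with 1 listed transcript and 7.37% for those of genes with several. Pearson's r of log2(FPKM + 1) across kept transcripts, which are not independent replicates, was 0.815 between the knockout libraries, 0.783 between the wild type libraries and 0.766 to 0.811 across groups.

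**Figure D3:**
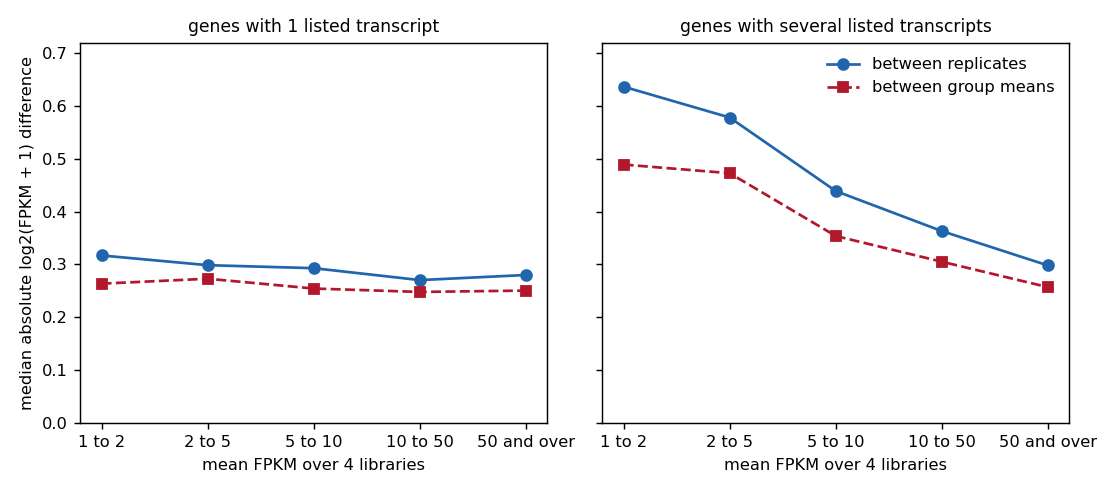
Median absolute difference in log2(FPKM + 1) (y axis) between replicates (circles) and between group means (squares), by mean FPKM (x axis), for genes with 1 listed transcript (left) and with several (right). Between replicates it falls from 0.64 at 1 to 2 FPKM to 0.30 at 50 FPKM and over where several isoforms are listed, and stays between 0.27 and 0.32 where 1 is.

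All-or-none patterns, at most 0.1 FPKM in both libraries of a group and at least 5 in both of the other, were found for 21 transcripts of 20 genes, 9 present in the knockout and 12 in the wild type. The same rule gave 20 transcripts between sponge and wild type females and 26 between wild type females and males. Within a group the same limits bind 2 libraries instead of 4, and present in 1 replicate and absent in the other were 227 transcripts in the knockout, 354 in the male wild type, 259 in the sponge and 217 in the female wild type. Of the 21, 13 belonged to genes with several listed transcripts. For 10 the gene total differed less than 1.5-fold between the group means after 1 was added to each.

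At the level of gene totals, 8 of 13465 genes passed (0.0594%), 3 higher and 5 lower in the knockout, and each has 1 listed transcript. Arl4c, a small GTPase gene (chromosome 1, transcript 88698225 to 88702221), had transcript FPKM of 0 and 0 in the knockout and 24.2 and 21.03 in the wild type. Hist1h4i, a histone H4 gene whose coding sequence is close to those of other H4 genes, had 0 and 0 against 24.5 and 18.6 FPKM. Tob1, which encodes an antiproliferative protein that promotes mRNA deadenylation, had 0 and 0 against 11.99 and 9.39 FPKM. In the females Tob1 had 0.118 and 0 FPKM with the sponge and 3.52 and 0.957 FPKM without it, all below the male wild type. These male wild type libraries were high in both replicates and the knockout libraries were listed at 0.

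Omg encodes oligodendrocyte myelin glycoprotein and had 0.816 and 0.520 FPKM against 17.5 and 16.0 FPKM (log2 difference -3.42 ± 0.20, SE). Fitm2, which encodes a protein of lipid droplet formation, had 0.0610 and 0.122 FPKM against 8.93 and 9.86 FPKM (log2 difference -3.25 ± 0.19, SE). Their female values went both ways within a group. Omg had 1.21 and 22.9 FPKM in the sponge libraries and 15.6 and 2.06 FPKM in the female wild type, and Fitm2 had 8.69 and 0.0253 FPKM and then 1e-06 and 1.01 FPKM. The summed FPKM of the 18 kept oligodendrocyte marker genes, Omg among them, was 253 and 238 in the knockout and 225 and 307 in the wild type, so that list overlapped between the groups.

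Of the 3 genes that passed as higher, Pcbp1, an RNA-binding protein gene expressed in nearly all cells, had 22.2 and 31.2 FPKM in the knockout and 0 and 0 FPKM in the male wild type. All 4 female libraries had 22.7 to 40.4 FPKM of it. Nhlrc1, which encodes the ubiquitin ligase malin, had 8.23 and 8.95 FPKM against 0 and 0 FPKM, and the female libraries had 10.01 and 8.67 FPKM with the sponge and 0 and 0 FPKM without. Gm10131 had 8.87 and 8.47 FPKM against 0 and 0, and in the females only wild type library 2 had any, at 9.24 FPKM.

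**Figure D4:**
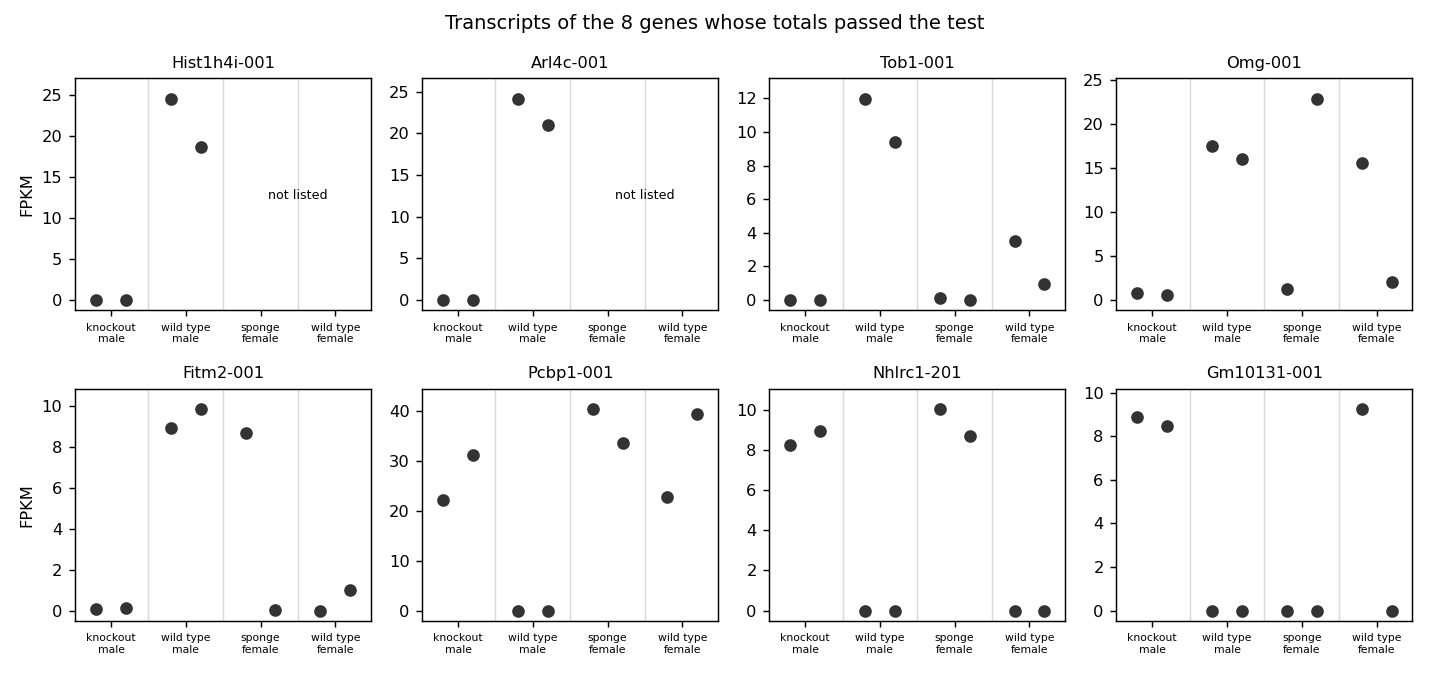
FPKM (y axis) of the only listed transcript of each of the 8 genes whose totals passed, in each library (points), grouped by genotype and sex. The male groups are apart in all 8, and the replicates of a female group differ widely for Omg, Fitm2 and Gm10131.

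The 8 adjusted p-values lay at 0.0472, and the transcripts of the same genes did not pass at transcript level (adjusted p from 0.182 to 0.327). The 7 of these transcripts with an exon structure in the annotation all have 1 or 2 exons, against 5.23% of the 15084 kept transcripts with a structure and 10.2% of those from genes with 1 listed transcript. With limma, 739 genes had an unadjusted p under 0.05, and 1190 without wild type library 2. No gene passed after centring each library on its median or without any of the 4 libraries.

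The peptide genes by which arcuate neurons are known each had 1 listed transcript, so no isoform change could be seen in them. Pomc-201, whose product yields the satiety signal alpha-MSH, had 33.3 and 14.9 FPKM in the knockout and 60.9 and 27.9 FPKM in the wild type, and the groups overlapped (log2 difference -0.86 ± 0.55, SE, adjusted p = 0.803). Agrp-002, which opposes it, had 23.5 and 20.2 FPKM against 30.0 and 28.1 FPKM. Npy-001 had 69.0 and 38.2 FPKM against 83.1 and 78.4 FPKM. Agrp-002 and Npy-001 were lower in both knockout libraries, but neither passed (adjusted p = 0.803 for both). Cartpt-201 had 75.0 and 107 FPKM against 61.7 and 119 FPKM (adjusted p = 0.975).

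Among 38 genes known from the literature as targets of the cluster, 66 transcripts were kept and 0 passed with limma, while 3 with higher and 1 with lower levels reached an unadjusted p under 0.05 (6.06%, beside 6.03% of all kept transcripts). Their median log2 difference was 0.02, beside 0.03 for all kept transcripts, with 34 higher and 32 lower. It was 0.17 without knockout library 1, -0.06 without knockout library 2, -0.08 without wild type library 1 and 0.06 without wild type library 2. Cyld-001, an isoform of a deubiquitinase that restrains NF-kappaB, had 4.85 and 4.19 FPKM in the knockout and 0 and 0.994 FPKM in the wild type (log2 difference 1.96 ± 0.48, SE, adjusted p = 0.749). Cyld-003 had 0.348 and 0.886 FPKM against 3.44 and 1.497 FPKM. Map3k12, a kinase gene of axon injury signalling, showed Map3k12-003 at 3.801 and 1.71 FPKM against 0.111 and 0.217 FPKM and Map3k12-002 at 0 and 0.783 FPKM against 2.52 and 2.89 FPKM. The groups did not overlap for any of these isoforms, which were named for their small p, and none passed. Over the whole list the groups did not overlap for 39.4% of the 66 transcripts, beside 36.1% of all kept transcripts. App-201, of the amyloid precursor, had 217 and 246 FPKM against 238 and 244 FPKM, and its groups overlapped.

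Seed matches were counted in the annotated 3′ UTRs of 15043 kept transcripts, as the letters GCACTTT for miR-17 and miR-20a, GCACCTT for miR-18a, TTTGCAC for miR-19a/b and GTGCAAT for miR-92a on the transcript's strand. The miR-19a/b and miR-17/20a matches share GCAC and can overlap. At least 1 match was present in 1831, 1121, 1699 and 985 of these UTRs, in that order, and none of the transcripts with a match passed. At an unadjusted p under 0.05, 60 of the 1831 with a miR-17/20a match were higher and 33 lower. These counts were 56 and 39 of the 1699 with a miR-19a/b match and 36 and 30 of the 985 with a miR-92a match. They were 27 and 32 of the 1121 with a miR-18a match. Of all 17823 kept transcripts, 605 were higher (3.39%) and 469 lower (2.63%). The median log2 difference with and without a match was 0.037 and 0.033 for miR-17/20a and 0.031 and 0.034 for miR-19a/b. It was 0.016 and 0.036 for miR-92a and -0.014 and 0.039 for miR-18a. Within genes that list isoforms with and without a miR-17/20a match, the isoform with the match had the larger log2 difference in 48.4% of 415 genes, with a median gap of -0.02. For miR-18a this was 44.8% of 259 genes with a median gap of -0.07, and for miR-92a 42.7% of 248 genes with a median gap of -0.11. For miR-19a/b it was 49.9% of 395 genes with a median gap of -0.00096. The shares for miR-17/20a and miR-19a/b thus lay close to 50%, and those for miR-18a and miR-92a lay further below it. Whether any of these shares differed from 50% was not tested.

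For feeding and neuropeptide genes, 47 transcripts of 40 genes were kept, 0 passed with limma and 2 higher and 3 lower had an unadjusted p under 0.05 (10.6%, beside 6.03% of all kept transcripts). The median log2 difference was -0.13, beside 0.03 for all kept transcripts. It was 0.0021 without knockout library 1, -0.03 without knockout library 2, -0.20 without wild type library 1 and -0.16 without wild type library 2. Oxt-001, the oxytocin transcript, had 72.2 and 50.6 FPKM in the knockout and 133 and 115 FPKM in the wild type (log2 difference -1.02 ± 0.27, SE, adjusted p = 0.770). Npvf-001, encoding RFamide-related peptides, had 13.4 and 10.4 FPKM against 5.40 and 5.37 FPKM (log2 difference 1.00 ± 0.27, SE, adjusted p = 0.770). Lepr-001, an isoform of the leptin receptor with a coding length of 3489 bases, had 1.345 and 3.04 FPKM against 0.274 and 0.448 FPKM, and its share of the gene's listed isoforms was 54.3% and 64.3% against 17.8% and 16.4%. Prlr-005, of the prolactin receptor, had 1.41 and 1.25 FPKM against 3.79 and 4.08 FPKM. These 4 transcripts, named for their small p, did not overlap between the groups, and none passed (adjusted p up to 0.803). Over the whole list the groups did not overlap for 42.6% of the 47 transcripts, beside 36.1% of all kept transcripts.

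The serotonin receptor gene Htr2c, which acts on Pomc neurons, gave 1.22 and 1.57 FPKM of Htr2c-002 in the knockout and 8.48 and 2.07 FPKM in the wild type. Htr2c-003 had 0.778 and 2.98 FPKM against 0 and 1.36 FPKM, and its groups overlapped. The most abundant feeding transcripts were Cpe-001, of the peptide-processing carboxypeptidase E, with 429 and 496 FPKM against 385 and 419 FPKM, and Pmch-001, of melanin-concentrating hormone, with 217 and 259 FPKM against 112 and 292 FPKM.

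Splicing and RNA-binding regulators had 122 kept transcripts of 49 genes. None passed with limma, and 10 higher and 1 lower had an unadjusted p under 0.05 (9.02%, beside 6.03% of all kept transcripts). A positive difference was found for 80 and a negative for 42, so 65.6% were positive, beside 52.7% of all kept transcripts, and the median was 0.25. The groups did not overlap for 37.7% of these transcripts, 37 with the knockout above and 9 below, beside 36.1% of all kept transcripts. The median stayed between 0.24 and 0.29 without any 1 of the 4 libraries. The summed gene FPKM of the list was 938 and 980 in the knockout and 735 and 808 in the wild type. Celf4-202, of a neuronal splicing and mRNA-stability factor, had 18.7 and 23.4 FPKM against 7.43 and 6.78 FPKM (log2 difference 1.44 ± 0.25, SE, adjusted p = 0.586). Matr3-006, of the nuclear matrix protein matrin 3, had 4.45 and 2.18 FPKM against 0 and 0. Rbfox2-202 had 2.496 and 6.06 FPKM against 0.802 and 0.143 FPKM, a share of 10.6% and 15.0% against 2.47% and 0.601% of this splicing factor's isoforms. Among the females, Celf4-202 had 3.21 and 11.1 FPKM in the sponge libraries and 10.5 and 28.9 FPKM in the wild type libraries. For Matr3-006 these values were 1.85 and 0.820 FPKM and then 3.22 and 0 FPKM. For Rbfox2-202 they were 0.764 and 3.98 FPKM and then 0.206 and 1.58 FPKM. Each thus varied between replicates of the female groups.

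The most abundant isoforms of that list kept most of their gene's FPKM in every library. Hnrnpk-002 had 72.5 and 67.2 FPKM against 46.5 and 57.8 FPKM, with 62.8% and 62.9% of its gene's summed FPKM against 58.9% and 50.5%. Hnrnpk-008 had 9.15 and 2.04 FPKM against 9.90 and 19.8 FPKM. Ddx5-001, of an RNA helicase, had 140.2 and 115 FPKM against 108 and 152 FPKM, and its groups overlapped.

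Neuronal genes known for alternative isoforms had 219 kept transcripts of 53 genes, with 0 passed by limma, an unadjusted p under 0.05 for 4 higher and 9 lower (5.94%, beside 6.03% of all kept transcripts), and a median log2 difference of 0.02. That median was 0.07 without knockout library 1, -0.09 without knockout library 2, 0.0069 without wild type library 1 and 0.06 without wild type library 2. Among their 217 isoform ratios 0 passed and 6 had an unadjusted p under 0.05 (2.76%, beside 5.4% of all ratios), and 2 of 47 genes changed their leading isoform, beside 3.24% of all genes considered. Dnm1l-203, of the mitochondrial fission GTPase Drp1, had 14.1 and 25.0 FPKM in the knockout and 3.70 and 6.57 FPKM in the wild type, a share of 35.7% and 45.8% against 12.4% and 16.9%. Kif1b-001, of a kinesin that carries synaptic vesicle precursors, had 41.3 and 49.3 FPKM against 77.96 and 74.1 FPKM (log2 difference -0.74 ± 0.21, SE, adjusted p = 0.783). Apbb1-002, of an adaptor that binds the amyloid precursor, had 15.3 and 14.1 FPKM against 2.68 and 8.15 FPKM. Gria1-005, of an AMPA receptor subunit, had 29.5 and 28.2 FPKM against 47.4 and 59.4 FPKM, and Camk2a-002, of a synaptic kinase, 10.6 and 11.1 FPKM against 46.6 and 23.9 FPKM. The groups did not overlap for these 5, and none passed. Pkm-202 kept 83.5% and 83.3% of the pyruvate kinase M isoforms in the knockout and 84.4% and 87.8% in the wild type.

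**Figure D5:**
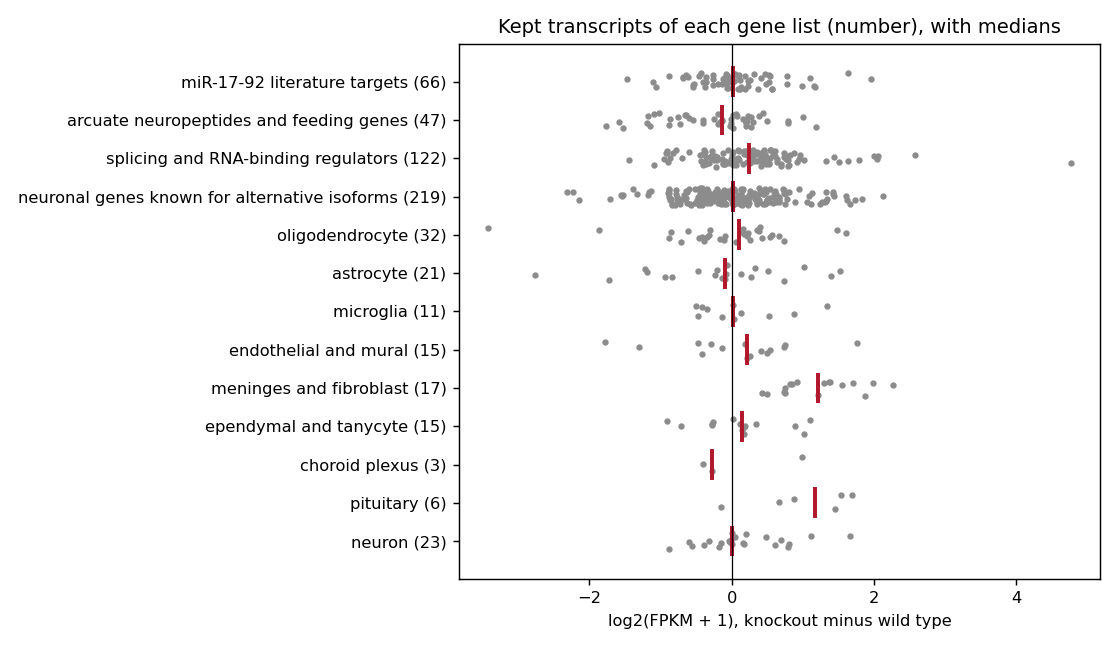
Log2(FPKM + 1) difference, knockout minus wild type (x axis), of each kept transcript (grey point) in each gene list (y axis, number of transcripts in brackets), with the list's median as a red line. The median is 0.02 for the literature targets, 0.25 for splicing and RNA-binding regulators and 1.21 for meninges and fibroblast markers.

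None of the transcripts that mark other tissue passed with limma. All 17 kept transcripts of meninges and fibroblast markers had a positive difference, 15 did not overlap (beside 36.1% of all kept transcripts), and 8 had an unadjusted p under 0.05 (47.1%, beside 6.03%). Their median log2 difference was 1.21, and their summed gene FPKM was 384 and 265 in the knockout and 94.8 and 88.9 in the wild type. Most of that sum was Ptgds, which encodes prostaglandin D synthase and is expressed in meninges and oligodendrocytes, at 327 and 222 FPKM against 80.6 and 68.6 FPKM. Summed pituitary markers, mainly growth hormone (Gh) and prolactin (Prl), were 341 and 10.9 FPKM in the knockout and 13.8 and 72.3 FPKM in the wild type, so knockout library 1 stood apart. Of the 10 pituitary genes, Tshb, Pitx1 and Pou1f1 were not among the listed genes. Neuronal markers summed to 428 and 446 FPKM against 448 and 460 FPKM, and astrocyte markers to 738 and 646 FPKM against 782 and 697 FPKM. The part of these differences in the isoform results was not tested.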

How the data were processed

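Arcuate nuclei were cut from coronal sections, and stranded poly(A) libraries (oligo(dT) selection, dUTP second strand) were read for 150 cycles from both ends, per the labels' protocols. FastQC, cutadapt, HISAT2 2.0.4, StringTie 1.2.3 and the builds mm10 and GRCm38 are named in the submitters' processing notes, and Ballgown in the series' design text. Whether StringTie used the strand is not given in the sources used here, so overlapping antisense genes cannot be told apart. The deposited values are FPKM per transcript and per gene, estimated by the authors. A gene's value is not the sum of its transcripts' FPKM and can lie below that of 1 isoform. Gene values summed to 143536 to 152741 per library, against 194147 to 208443 for transcripts. Gene totals are the deposited gene values, whereas shares use the summed FPKM of the listed transcripts. An FPKM estimate shares reads among overlapping isoforms. Depth per library is unknown, since low FPKM values are not steps of whole reads, so no counting error can be given. Exact zeros occur also for genes that nearly all cells use, such as Pcbp1, and are given as "listed at 0" with each library's value, and no fold change is given where both libraries of a group are at 0.

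The deposited fold changes and p-values were not used. limma 3.58.1 in R 4.3.3 (empirical Bayes with a mean trend, two-sided, Benjamini-Hochberg adjustment over all listed transcripts or genes, threshold 0.05) was fitted to log2(FPKM + 1) of the 4 male libraries, and ± after a log2 difference is its standard error (SE, n = 2 libraries per group). A log2(FPKM + 1) difference understates the change of low transcripts. Isoform ratios were tested the same way, adjusted over the ratios tested, and 9 gene names that could not be assigned to 1 gene were left out of them. Exons, coding lengths and 3′ UTRs came from GENCODE M21 on GRCm38, matched by versioned ID for 84.6% of kept transcripts, and all of these had the same coordinates. The script was tested on simulated data. Replicate numbers do not pair the samples in the labels.

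Named were the transcripts of smallest p with groups that did not overlap (6 per direction), the 6 genes of smallest isoform ratio p, the 10 largest exchanges of leading isoform with a summed FPKM of at least 10, all genes called in totals, Pomc, Agrp, Npy and Cartpt, and in each list the members of smallest p and highest FPKM. Some results that this rule names are not reported here. Members and lists were chosen with earlier results of these data known. Alternatives were another pseudocount (0.1 or 0.5), a replicate block, leaving out each library, median centring, no trend, other FPKM minimums, all 8 libraries, diffSplice and isoform shares.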

Additional observations from a re-analysis of the deposited data

How the results depend on the processing

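The 2 Sepp1 transcripts remained the calls with a pseudocount of 0.5, with median centring and among transcripts of at least 1 or 5 FPKM. With a pseudocount of 0.1, a replicate block, no trend or without any 1 library, 0 transcripts were called, and with all 8 libraries 6 were, 0 of them shared. Isoform ratios gave 0 calls except 2 among transcripts of at least 5 FPKM, 33 with diffSplice and 40 with shares of the deposited gene total, 22 of which have equal capped shares within both groups. Gene totals gave 2 calls with a pseudocount of 0.1, and 0 with the replicate block, with median centring or without any 1 library. Genes that changed their leading isoform numbered 32 at a summed FPKM of at least 20 (of 1202 genes), 615 when leaders were taken from group means, and 320 to 438 without 1 library. Leaving out 1 library turned the sign of some uncalled log2 differences: Nnat-001 ran from -0.10 to 0.28, Cartpt-201 from -0.40 to 0.53, App-201 from -0.15 to 0.030, Pmch-001 from -0.30 to 1.08, Ddx5-001 from -0.26 to 0.23 and Pkm-202 from -0.36 to 0.054. The Sepp1-004 ratio turned to 0.43 with diffSplice. The cause of these shifts was not tested, apart from the fewer libraries or transcripts that a setting itself leaves. Replicate numbers gave no sign of pairing, with a correlation of same-numbered deviations of -0.011 over transcripts, and only 2 pairs exist. Of 1306 alternative values of named transcripts, 1250 kept their direction and side of the threshold. For the lists, counts without each library and after median centring were added after seeing the data, and the splicing median ran from 0.22 to 0.29. Unknown depth and 2 pooled libraries per group limit what could be detected.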

Other observations

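Among the 21 all-or-none transcripts, 4 that fall outside the named-gene rule are given here, chosen after their values were seen. Dmxl2-004, of the synaptic vesicle protein rabconnectin-3 alpha, had 8.31 and 11.8 FPKM in the knockout and 0.00458 and 0.0760 FPKM in the male wild type, while the sponge libraries had 3.64 and 0.0200 FPKM and the wild type females 7.41 and 3.73 FPKM. Srrm2-001, of a nuclear speckle protein that binds the spliceosome, had 5.77 and 6.79 FPKM against 0 and 0 FPKM, with 1.40 and 0 FPKM in the sponge libraries and 1.45 and 2.04 FPKM in the wild type females. In the opposite direction, Rprd2-006, of a protein that binds the RNA polymerase II tail, was listed at 0 in both knockout libraries and had 10.1 and 5.72 FPKM in the male wild type. All 4 female libraries had 4.12 to 7.21 FPKM of Rprd2-006, so the knockout libraries were the ones at 0 there. Lrch3-001 was listed at 0 in the knockout, had 7.09 and 9.42 FPKM in the male wild type, and had 0 and 16.1 FPKM in the sponge libraries and 11.8 and 10.6 FPKM in the wild type females. None of these transcripts passed at transcript level with limma (adjusted p from 0.348 to 0.427). As isoforms within their gene, Lrch3-001 (adjusted p = 0.000136), Rprd2-006 (0.0145) and Dmxl2-004 (0.0300) passed by diffSplice, and Srrm2-001 did not. For 7 of the 18 all-or-none transcripts that the female files also list, the sponge or the wild type female libraries disagreed in the same way.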
